A study of Arabidopsis thaliana with 8 samples.

Results

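The comparison described here sets WT *Arabidopsis thaliana* seedlings treated with brassinolide (BL) against WT seedlings given medium alone, and asks which transcripts a short BR treatment raises or lowers across gene functions. It used 4 of the 8 arrays of the series, chosen by sample title, with 2 mock arrays and 2 BR arrays. Seedlings were of the Columbia (Col-0) accession, were grown in the light and were 10 d old by their labels (the methods make them 1 d younger). They were immersed for 2.5 h in diluted liquid Murashige medium (0 μM BL, mock) or in the same medium with 1 μM BL (BR). Immersion was therefore shared by both groups. Whole seedlings were measured, so that a change in the level of an RNA per cell and a change in the number of cells of a type cannot be told apart. The other 4 arrays came from *yucca*, a mutant that makes too much auxin and for which the sources give no allele, under the same treatments, with 2 mock and 2 BR arrays, and were used only to ask where its response differed.

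BRs are the steroid hormones of plants, and BL is the most active of them. BL binds the receptor kinase BRI1 at the cell surface, the GSK3-like kinase BIN2 is then switched off, and transcription factors of the BZR1 family collect in the nucleus and change gene expression. In seedlings the hormone is known for driving cell elongation, for which the cell wall has to be loosened and extended, and for lowering the transcripts of its own biosynthetic enzymes.

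Each value is an intensity in arbitrary units from an Affymetrix ATH1 array. Median intensities of the 4 arrays lay between 86.77 and 90.03, replicate arrays correlated at a Pearson r of 0.998 in each group, and mock and BR arrays at 0.994 across probe sets (a description, since probe sets are not replicates). The median replicate SD of a probe set was 0.07 (log2) in each group. The study counts its replicates as biological, and n = 2 in every group below. A transcript was called when its adjusted p (limma, Benjamini-Hochberg over 22746 probe sets) was under 0.10 and its log odds B was above 0. "Rose" and "fell" are used only of called transcripts, and the largest adjusted p among them was 0.0214. Of 29 marker genes chosen for tissues, 6 had a probe set with a gene name here. *RCA*, the rubisco activase of green tissue, read 14748 and 14804 after mock and 14590 and 14645 after BR. The highest intensity on each of these arrays lay between 14882 and 15157, so *RCA* read near the top, where a change may not show. The root hair genes *EXPA7*, *EXPA18* and *PRP3* and the guard cell factor *FMA* were not called and had log2 changes between −0.19 and 0.06. The exception was *WER*, which sets cell fate in the root epidermis and rose from 28.7 and 30.4 to 44.9 and 42.9. Its part in other results was not tested.

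BR raised 342 probe sets and lowered 297 of the 22746 tested, which is 1.50% called higher and 1.31% called lower, 2.81% in all. The changes were mostly modest. The median rise was 1.69-fold and the median fall 1.66-fold, 80 probe sets rose and 75 fell at least 2-fold, and 8 rose and 11 fell at least 4-fold. Only 3 probe sets that were not called had a change of at least 2-fold. The median log2 change over all probe sets was −0.01. Calls were rare among dim probe sets, with 0.0879% called where the mean intensity was below 19.6 against 4.78% where it was above 293. The falls reached further than the rises, with the deepest at 4.43 and the highest rise at 2.86 on the log2 scale.

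**Figure D1:**
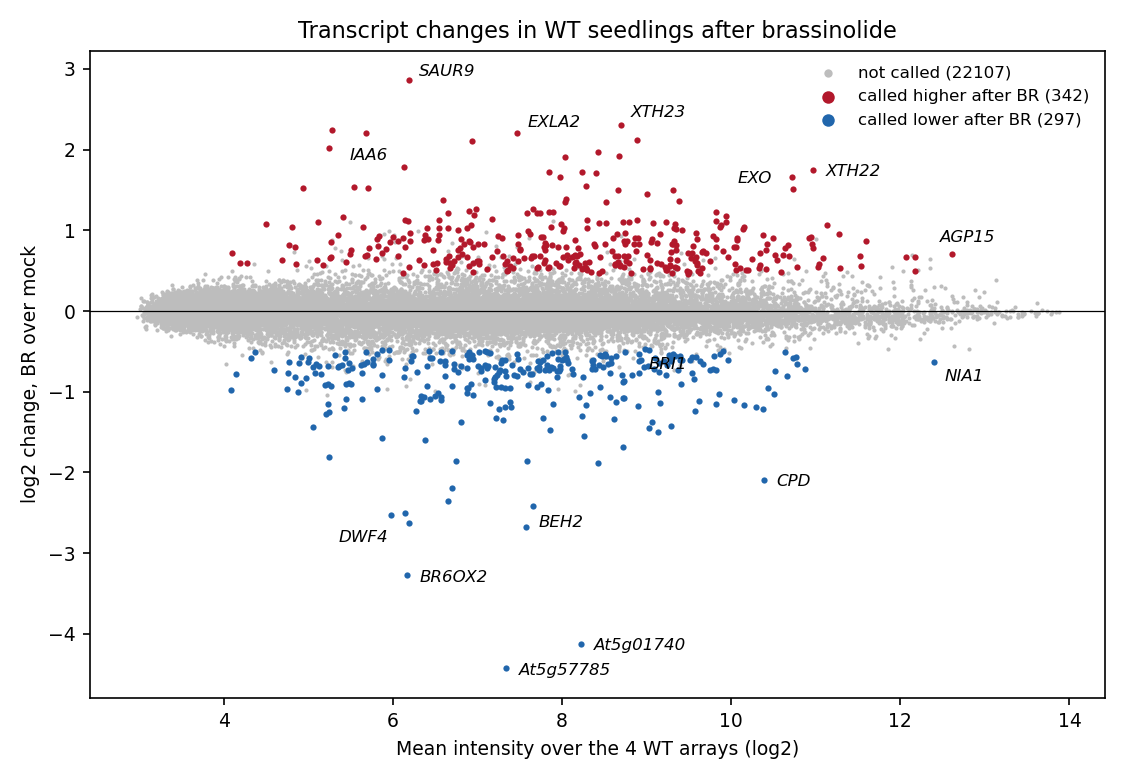
Log2 change of each probe set (BR over mock, vertical axis) against its mean log2 intensity over the 4 WT arrays (horizontal axis). Red points are the 342 called higher, blue points the 297 called lower and grey points the rest, and the deepest falls lie near −4 while no rise passed 2.86.

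Gene names decide what can be counted. Of the called probe sets, 299 had a name from the platform annotation and 336 only from the study's tables of hormone-regulated transcripts, while 4 stand for several genes. Members of a gene group named only through the tables of BR-regulated transcripts were listed there because of these arrays, so their call is a description and carries no weight about the group. Among probe sets named by the annotation, 1.22% rose and 0.994% fell, 2.22% in all, and these shares stand beside the counts of annotation-named members below. The lists and their members were chosen with earlier results of these data known. A count above these shares is therefore a description and no test of a group. Of 164 called genes with a name that were followed through 13 other settings, 93 kept their call in all of them and none changed direction, and those that lost it when a single array was left out are named beside their groups. A gene that a setting left out counted as kept, and the filter on dimmer probe sets held only 129 of the 164. An adjusted p under 0.05, no B criterion and a larger assumed proportion in B could not remove a call. The calls of *SOT12*, *IBH1*, *UNE11*, *ACS11*, *NAC047*, *WRKY40* and *HSFB4* were lost only in the fit on all 8 arrays.

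Of the gene groups examined, BR biosynthesis had the lowest median change. Its measured members were all named because of their calls on these arrays, so this rank carries no weight about the group. DWF4, CPD, ROT3 and CYP90D1 are related P450 enzymes of the pathway, with DWF4 at its rate-limiting hydroxylation, and BR6OX2 acts at the end, where BL is made. *BR6OX2* read 242 and 206 on the mock arrays and 27.1 and 19.6 on the BR arrays, a 9.69-fold fall (log2 change −3.28 ± 0.16, SE, adjusted p = 0.000407, limma). *DWF4* read 172 and 192 after mock and 31.2 and 27.6 after BR, and fell 6.19-fold. *CPD*, the brightest of them, read 2746 and 2792 and then 618 and 678. The fall of *CYP90D1* was smaller, from 118 and 115 to 62.3 and 49.9, with a log2 change of −1.06. All 5 members measured of the 7 listed fell, and their median log2 change was −2.10. All 5 were named only through the tables of BR-regulated transcripts. With 16 added to each intensity before logs, the fall of *BR6OX2* was 6.11-fold.

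In sterol synthesis, 4 of 5 genes measured fell, again all named through those tables. *CYP710A2*, a sterol C-22 desaturase, read 350 and 292 after mock and 163 and 162 after BR. The sterol methyl oxidase genes *SMO2-2* and *SMO2-1* fell by 0.78 and 0.59 on the log2 scale, and *MVA1*, which encodes HMG-CoA synthase at the head of the mevalonate pathway, fell by 0.56. *SMO1-1* read 457 and 403 after mock and 434 and 447 after BR, so that its groups overlapped. *SMO2-1* lost its call without either mock array or the second BR array, and *MVA1* whichever array was left out.

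Genes that inactivate BRs moved in both directions. *BAS1*, whose P450 product hydroxylates BL at C-26, read 190 and 175 on the mock arrays and 553 and 516 on the BR arrays, a log2 rise of 1.55 ± 0.09 (SE, adjusted p = 0.000654, limma). *SOB7*, a related P450, rose from 106 and 105 to 154 and 162. The sulfotransferase gene *SOT12* fell from 57.5 and 63.6 to 31.9 and 33.3. *BEN1*, a reductase gene that lowers BR levels, read 220 and 179 and then 287 and 284 and was not called (adjusted p = 0.051, limma). Among the 4 measured, 2 rose and 1 fell, and *SOB7* lost its call without either mock array or the second BR array.

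The receptor and the transcription factors of the pathway moved in both directions. *BRI1* read 1282 and 1370 after mock and 632 and 663 after BR, a 2.05-fold fall. Its paralogs were not called: *BRL3* had a log2 change of −0.63 ± 0.16 (adjusted p = 0.09 but B below 0, limma) at intensities under 35, and *BRL2* one of −0.04. *BEH2*, a BZR1 homolog, read 475 and 489 and fell to 71.7 and 78.6, a 6.42-fold fall, whereas its relative *BEH1* fell by 0.67 on the log2 scale. The probe set of *BZR1*, of a type that can match more than 1 transcript, rose from 1188 and 1126 to 1826 and 1915. These 3 genes of 1 family therefore gave a deep fall, a shallow fall and a rise. Of 7 pathway genes measured, 1 rose and 3 fell, and *BEH1* was not called without the second mock array.

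Among the basic helix-loop-helix factors tied to growth, *BEE1* (At1g18400), which promotes BR responses, read 149 and 133 and rose to 355 and 300. *BEE3* rose by 0.57 on the log2 scale. *BEE2* read 1073 and 971 after mock and 1202 and 1199 after BR and was not called (adjusted p = 0.233, limma), and *SPT* had a log2 change of −0.26. Both *PRE3*, which promotes elongation, and *IBH1*, an inhibitor of it, fell, *PRE3* from 69.4 and 60.7 to 25.3 and 31.5 and *IBH1* from 217 and 211 to 138 and 131. Another inhibitor of this type, *AIF1*, outside the list and named after its value was seen, rose by 0.96 on the log2 scale. Without either mock array or the second BR array *BEE3* was not called.

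**Figure D2:**
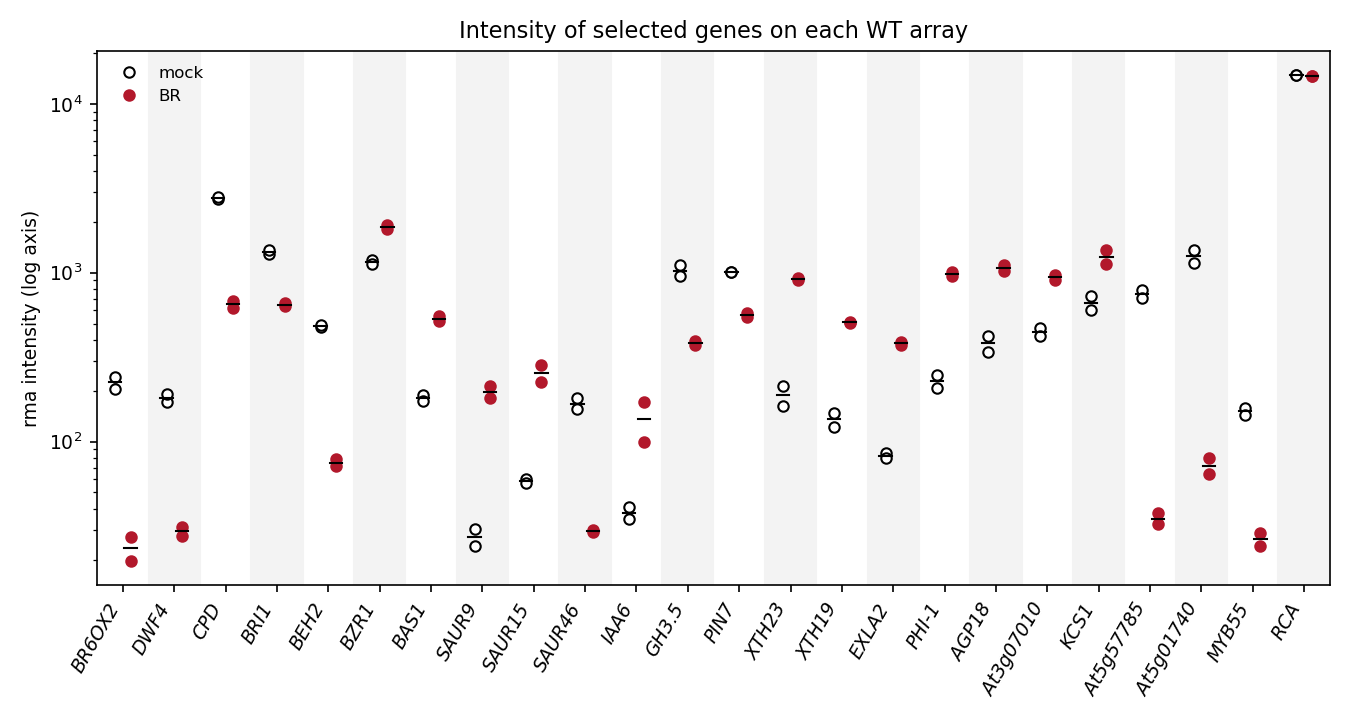
Intensity on a log axis of 24 named genes on the 2 mock arrays (open circles) and the 2 BR arrays (red), with short lines at the means. *BR6OX2*, *DWF4* and *CPD* at the left fall below their mock values, the cell wall genes from *XTH23* to At3g07010 rise above theirs, and *RCA* at the right has means of 14776 and 14618.

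Several genes of wall-loosening enzymes rose. XTH proteins cut and rejoin xyloglucan, the polymer that tethers cellulose. *XTH23* read 213 and 163 on the mock arrays and 927 and 906 on the BR arrays, a 4.92-fold rise (log2 change 2.30 ± 0.13, SE, adjusted p = 0.000672, limma). *XTH19* (At4g30290) rose from 148 and 122 to 514 and 502, and *XTH22*, the touch gene known as *TCH4*, from 1199 and 1002 to 3726 and 3636. *XTH33* (At1g10550) rose from 162 and 124 to 472 and 426. On all 8 of the *XTH* genes that rose the first mock array read above the second, and on 7 of 8 the first BR array read above the second, against 49.8% and 45.2% over all probe sets. *XTH24* went the other way, from 1914 and 1880 to 1087 and 1186. Of 15 *XTH* genes measured 8 rose and 1 fell. Among the 10 named by the annotation 4 rose, none fell and 6 were not called, including the bright *XTH27* (2176 and 2403, then 2335 and 2457) and *XTH32*, with a log2 change of −0.26 (adjusted p = 0.17, limma).

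Expansins loosen walls without cutting polymers, and most members of this family were not called. The expansin-like A genes had the largest rises. *EXLA2* read 85.3 and 80.1 after mock and 386 and 376 after BR, a 4.61-fold rise, and *EXLA1* rose from 196 and 153 to 700 and 656. *EXLA3*, dim at 19.4 and 16.7, rose to 51.4 and 51.9. Of 19 expansin genes named by the annotation these 3 rose, *EXPA9* fell (453 and 439, then 288 and 318) and 15 were not called, with a median log2 change of 0.00 over the 19. *EXPA5*, named by the study's tables, rose from 218 and 155 to 379 and 349. The brightest expansin, *EXPA1*, read 3716 and 3590 and then 4373 and 3933 and was not called, nor was *EXPA8*, at a log2 change of 0.63 with B below 0 (adjusted p = 0.0228, limma). *EXPA5* was not called with 16 added. The call of *EXPA9* was lost without either mock array or the first BR array.

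Pectin, the gel between cellulose fibres, is cut and modified by a further set of enzymes, of which 16 were measured. Among the 12 named by the annotation 6 rose and 1 fell, with a median log2 change of 0.57. At3g07010, given as a pectate lyase in the study's tables, read 469 and 424 and rose to 976 and 910. At3g06770, given there as a polygalacturonase, rose from 284 and 285 to 536 and 528, and At3g49220, given as a pectinesterase, from 1165 and 1298 to 2129 and 2204. *PAE8*, a pectin acetylesterase gene, rose 2.05-fold. The 3 members that fell were *UNE11* (196 and 198, then 111 and 116) and At1g23205 (38.1 and 36.0, then 24.9 and 22.6), both given as pectinesterase inhibitors in the study's tables, and *PMEI1* (737 and 728, then 482 and 470), given there as a pectinesterase and by RefSeq as an inhibitor of it. At4g25260, given as a pectinesterase in those tables, rose by 0.55 on the log2 scale. *PAE11* and *PME16* were not called, at log2 changes of 0.08 and −0.14. *PMEI1* and At1g23205 lost their calls without the first mock array, and At1g23205 also without the second BR array.

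All structural wall protein genes that were called rose. Of 17 arabinogalactan protein, extensin and LRX genes measured, 12 rose, none fell and 5 were not called, and none of the 17 was named by the annotation. *LRX2*, a leucine-rich repeat extensin, read 33.9 and 27.6 and rose to 87.1 and 89.1. *AGP18* rose from 424 and 339 to 1108 and 1029, *AGP7* by 1.04 and *AGP4* by 0.91 on the log2 scale. The root hair members *PRP3* and *EXT6* were not called and their groups overlapped, at 940 and 878 then 937 and 790 for *PRP3*. Both *PRP3* and *EXT6* entered the count through the study's tables of auxin-regulated transcripts.

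Cellulose itself is made by CESA proteins, and the related CSL proteins make other wall polysaccharides. *CESA5* read 337 and 306 and rose to 606 and 537, *CSLA14* rose by 0.81, *CSLB05* by 0.78 and *CSLB04* by 0.59 on the log2 scale. The probe set of *CSLB04* is of a type that can match more than a single transcript. Of 13 members 5 rose and none fell. The 8 named by the annotation were all not called, although their log2 changes were all above 0, with a median of 0.26. *CSLC04*, a xyloglucan backbone synthase gene, read 584 and 479 and then 935 and 812 (adjusted p = 0.0235 with B below 0, limma), and *CSLD2* had a log2 change of 0.22. Without the second mock array *CSLB05* and *CSLB04* were not called, nor was *CSLB04* without either BR array.

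*EXO* is an extracellular protein that mediates BR-promoted growth and names a small family. *PHI-1* read 249 and 206 and rose to 1012 and 951, a 4.33-fold rise, and *EXO* rose from 959 and 936 to 2962 and 3019. *EXL3* and *EXL5* rose by 1.02 and 0.80 on the log2 scale. *EXL2* and *EXL4* fell, *EXL2* from 1862 and 2002 to 957 and 1041 and *EXL4* from 793 and 777 to 532 and 531. All 6 members measured were thus called, 4 higher and 2 lower, and 5 of them were named only through the tables of BR-regulated transcripts. *EXL4* lost its call whichever of the 4 arrays was left out. SKU5-like proteins sit at the wall side of the membrane and steer growth. *SKS5* (1699 and 1877, then 3476 and 3435), *SKS3* and *SKS17* rose by between 0.94 and 0.95 on the log2 scale, while the 4 members named by the annotation were not called, *SKU5* at 0.42 and *SKS15* at −0.96.

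The wall is also watched by receptor kinases and by the RALF peptides that some of them bind. *THE1*, a receptor kinase of the wall, read 462 and 490 and rose to 820 and 866. *FER*, a relative that binds RALF peptides, read 1520 and 1424 and then 1935 and 1884 and was not called (adjusted p = 0.0538, limma). *BARK1*, whose protein associates with the BRI1 coreceptor BAK1, rose by 0.58, and *WAK1* fell by 0.83 on the log2 scale from 42.2 and 41.1. At2g01820 was not called, at 0.13. Among secreted peptides, *RGF9* (At5g64770) had the largest rise, from 191 and 145 to 574 and 524. *RALF22* and *RALF33* rose by 0.81 and 0.54 and *RALF23* fell by 0.80 on the log2 scale, whereas the bright *RALF1* (1258 and 1217, then 1362 and 1269) and *RALF34* were not called. *CLE2* fell from 122 and 154 to 65.3 and 65.9. Members of the RALF family thus lay on both sides. Without either mock array *BARK1*, *WAK1* and *RALF33* were not called, *BARK1* also not without the second BR array and *RALF33* not whichever array was left out.

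Epidermal cells of an elongating organ must also extend their cuticle. Very-long-chain fatty acids for wax and cutin are built by KCS enzymes. *KCS1* read 727 and 605 and rose to 1357 and 1123, and *KCS9* rose from 1074 and 982 to 1812 and 1843. *BDG1*, which is needed for an intact cuticle, rose from 179 and 148 to 350 and 320, and *KCS3* rose by 0.78 on the log2 scale. Of 10 listed members 9 rose and none fell, with a median log2 change of 0.75, but the 9 were all named through the tables of BR-regulated transcripts. Outside the list, and named after their values were seen, the fatty acyl reductase gene *FAR1* fell by 1.07 on the log2 scale. Of lipid transfer protein genes, *LTP6* fell by 0.88 and *LTPG2* rose by 0.78. *MYB30*, which activates very-long-chain lipid genes and works with a BZR1 family factor, rose by 0.58 on the log2 scale. The only member named by the annotation, the wax ester synthase gene *WSD1*, read 11.8 and 11.9 and then 11.6 and 11.3. *KCS1* and *MYB30* lost their calls without the second mock array, and *MYB30* also without either BR array.

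**Figure D3:**
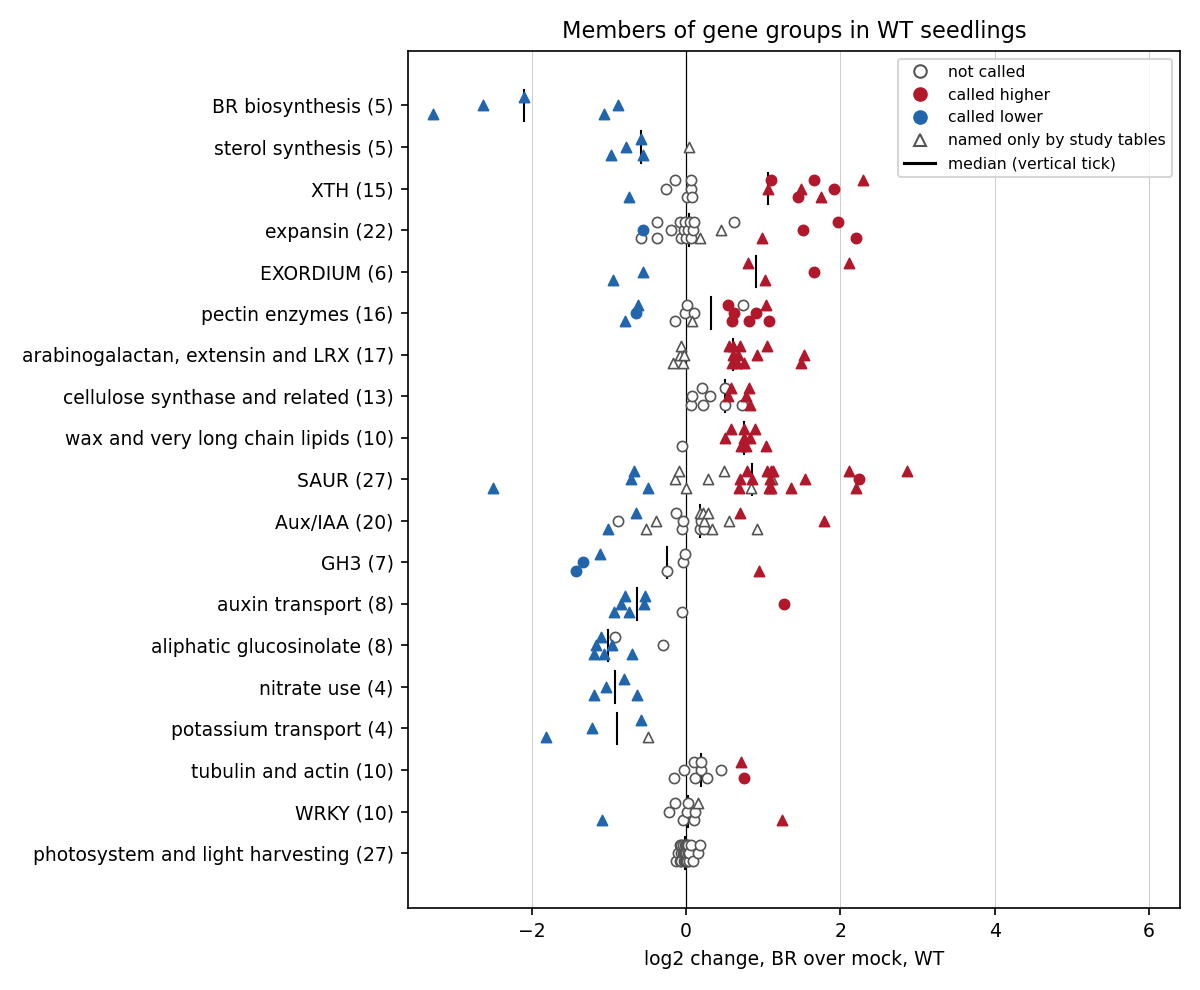
Log2 change (BR over mock, WT) of each measured member of 19 gene groups, with the number of members in brackets and a vertical tick at the median. Filled red and blue symbols were called higher and lower, open symbols were not called, and triangles mark members named only by the study's tables. Groups such as XTH spread over both sides of 0, whereas the 27 photosystem and light harvesting members lie between −0.13 and 0.18.

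Of the gene groups examined, that of small auxin up RNAs (SAURs) held the most rises. Of its 27 members 19 were named only through the tables of BR-regulated transcripts, so this rank carries no weight about the group. SAUR proteins act downstream of auxin and promote elongation by raising proton pumping into the wall. *SAUR9* (At4g36110) had the highest rise of all named genes, from 30.2 and 24.2 on the mock arrays to 213 and 181 on the BR arrays, a 7.26-fold rise (log2 change 2.86 ± 0.13, SE, adjusted p = 0.000318, limma). *SAUR15*, known as *SAUR-AC1*, rose from 60.4 and 57.2 to 285 and 225. *SAUR10* (At2g18010) rose from 18.5 and 17.1 to 96.8 and 73.4, and *SAUR68* (At1g29490) from 23.1 and 24.5 to 127 and 94.8. These 4 genes were dim after mock, since the median probe set read 89.9. With 16 added to each intensity the rise of *SAUR10* was 2.97-fold in place of 4.75-fold. Not every member rose. *SAUR46* fell 5.66-fold, from 180 and 155 to 30.1 and 29.0, and *SAUR59*, *SAUR36* and *SAUR51* fell by 0.71, 0.67 and 0.49 on the log2 scale. Of 27 members measured 16 rose, 4 fell and 7 were not called, and *SAUR10* was the only one named by the annotation. *SAUR78* (928 and 947, then 1117 and 1159) and *SAUR55* (a log2 change of −0.14) were among the members not called. Each of the 3 shallower falls lost its call without the second mock array or the first BR array.

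Other families known for rapid induction by auxin held both rises and falls. Aux/IAA proteins repress auxin response factors and are degraded when auxin arrives. *IAA6* read 40.8 and 34.8 and rose to 171 and 99.0, with a wide gap between the BR arrays, and *IAA3* rose by 0.70 on the log2 scale. Without the second mock array neither was called, nor was *IAA6* with 16 added. *IAA26* fell from 435 and 484 to 227 and 226 and *IAA7* from 2213 and 2176 to 1376 and 1418. The bright *IAA9* and *IAA13* were not called, at log2 changes of 0.22 and 0.17. Of 20 members 2 rose and 2 fell, and none of the 7 named by the annotation was called. GH3 enzymes attach amino acids to auxin. *GH3.5* read 1107 and 954 and fell to 394 and 371, *GH3.17* fell from 231 and 239 to 89.5 and 97.9 and *GH3.6* from 1217 and 1090 to 579 and 489. *GH3.4* rose by 0.94 on the log2 scale from 126 and 132, through a probe set of a type that can match more than a single transcript. *GH3.3* and *GH3.1* were not called. Of the 5 listed GH3 genes named by the annotation 2 fell and none rose. A further GH3 family gene outside the list, *DFL2*, named after its value was seen, rose by 0.76 on the log2 scale.

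Most auxin transport genes with a name here fell. *PIN7* (At1g23080), an efflux carrier gene, read 1006 and 1009 after mock and 550 and 574 after BR. *PIN3* (At1g70940) fell from 1263 and 1069 to 731 and 668 and *PIN4* (At2g01420) from 1111 and 1140 to 782 and 768. The uptake carrier gene *LAX3* (At1g77690) fell by 0.79 and *NPY1*, which acts with PIN proteins in organ formation, by 0.94 on the log2 scale. *WAG2*, whose kinase phosphorylates PIN proteins, was the exception and rose from 92.4 and 71.5 to 196 and 195, while *PID2* was not called, at −0.05. In all 1 member rose and 6 fell of 8 measured, and the 6 that fell were named only through the tables of BR-regulated transcripts. *PIN4* lost its call whichever of the 4 arrays was left out, and *PIN3* without the first mock array or the second BR array. The auxin response factor genes *ARF8* (At5g37020) and *ARF16* (At4g30080) fell by 0.67 and 0.66 on the log2 scale, from 128 and 120 to 72.3 and 83.8 and from 66.8 and 70.2 to 46.0 and 40.9. Neither was called without either mock array.

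Genes for making auxin and for releasing hormones from conjugates were split. *YUC3*, a flavin monooxygenase gene of auxin synthesis, rose from 59.2 and 66.3 to 112 and 122, and *ILL6*, an amidohydrolase gene of hormone conjugates, from 239 and 189 to 476 and 452. *CYP79B2*, which turns tryptophan into indole-3-acetaldoxime, fell from 464 and 446 to 290 and 272, and *MYB34*, its activator in indole glucosinolate synthesis, fell by 0.49 on the log2 scale. *YUC2*, *UGT74D1* and the 3 other members named by the annotation were not called, with a median log2 change of −0.09 over the 5. *MYB34* lost its call whichever of the 4 arrays was left out.

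Few genes of each of the other hormones were measured. *HAT1*, a homeodomain gene of the HD-ZIP II class, read 850 and 866 and fell to 328 and 335, and *HAT3* fell by 0.68 on the log2 scale, but *HAT2*, named by the annotation, read 796 and 787 and then 955 and 808 and was not called. The cytokinin-induced response regulator genes *ARR7*, *ARR3* and *ARR6* fell by 0.94, 0.67 and 0.58 on the log2 scale, while *ARR15* and *ARR16* were not called. In the ethylene group *ACS6* rose by 0.59 and *ACS11* fell by 0.98 on the log2 scale, and *EIN3* (1307 and 1363, then 1404 and 1402) and *ACS8* were not called. Of 7 gibberellin genes only *RGL1*, a DELLA repressor gene, rose, by 0.59 on the log2 scale. The gibberellin receptor genes *GID1A* and *GID1B* were not called. Of 21 jasmonate genes listed 2 were measured, *JAZ3* and *AOS*, and they fell by 0.63 and 0.58 on the log2 scale. Both were named only through the tables of BR-regulated transcripts. Of jasmonate metabolism genes outside the list, named after their values were seen, *CYP94C1* rose by 0.88 and *ST2A* fell by 0.71. *HAT3*, *ARR3*, *ARR6*, *ACS6*, *RGL1*, *JAZ3* and *AOS* all lost their calls without the first mock array, and all of them but *ARR3* and *RGL1* also without the second.

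Calcium sensors and touch genes rose in part. *MSS3*, a calmodulin-like gene, rose from 149 and 126 to 326 and 307, and *TCH2* from 147 and 129 to 260 and 286. At2g41090, a calcium-binding protein gene in the study's tables, and *CML42* rose by 0.75 and 0.53 on the log2 scale. *CML38* and *CML39* were not called. Of the 5 members named by the annotation 2 rose and none fell, and *CML42* lost its call whichever of the 4 arrays was left out.

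Transcription factor families showed no common direction. *MYB55* read 158 and 144 and fell to 28.7 and 23.9, a 5.74-fold fall, and *MYB13* fell from 122 and 111 to 52.1 and 71.5. *MYB50*, *MYB6* and *MYB40* rose by 0.94, 0.85 and 0.61 on the log2 scale, whereas *MYB48* was not called, at −0.03. Of 9 NAC genes 2 rose (*NAC096* and *ANAC029*, by 0.58 and 0.56) and 4 fell, led by *NAC102* (596 and 579, then 292 and 249), with *NAC047*, *ANAC072* and *NAC083* at falls of 0.80, 0.75 and 0.61 on the log2 scale. *NAC014* and *NAC062* were not called. *WRKY18* rose from 76.0 and 78.5 to 174 and 192 and *WRKY40*, its close relative in defence, fell from 64.8 and 62.4 to 25.9 and 34.5. None of the 7 WRKY genes named by the annotation was called, with a median log2 change of 0.01, and *WRKY33* and *WRKY22* stood at 0.16 and 0.01. *ERF105* rose by 0.50 on the log2 scale, and *ERF4* and *TINY* were not called. Of genes of this family outside the list, named after their values were seen, *ESE3* and *DREB26* rose by 1.73 and 0.74 on the log2 scale. Without the second mock array *MYB13*, *MYB40*, *NAC096*, *ANAC029*, *ANAC072*, *NAC083* and *ERF105* were not called.

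Members of the nitrate and potassium lists that were called fell. Nitrate transporters and reductases bring nitrate into the cell and turn it into ammonium. *NPF1.2* read 1809 and 1995 and fell to 775 and 893, *NPF2.13* fell by 1.03 on the log2 scale, *NIR1* fell from 2149 and 2119 to 1287 and 1167 and *NIA1*, the brightest transcript called lower among the named genes, from 6778 and 6717 to 4175 and 4531. All 4 measured members of the nitrate list fell, but of other nitrate transport genes, named after their values were seen, *CLC-A* and *SLAH2* rose by 0.68 and 0.65 on the log2 scale. For potassium, the channel gene *AKT2* read 73.1 and 69.3 and fell to 18.5 and 22.2, *KUP1* fell by 1.22 and *KUP6* by 0.58 on the log2 scale, while *KUP8*, at −0.49, was not called. All of these genes were named only through the study's tables. *NIA1* and *KUP6* lost their calls without either mock array.

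Called members of the sulfate and aliphatic glucosinolate lists fell, except *APS3*. Outside these lists, and named after their values were seen, *HMT-1*, a homocysteine methyltransferase gene, and *AOP1* rose by 1.23 and 0.88 on the log2 scale. Aliphatic glucosinolates, defence compounds of this plant family, are made from methionine. *MAM1*, which lengthens the side chain, read 701 and 727 and fell to 354 and 283. *IPMI2* fell 2.29-fold, *IPMI1* and *CYP83A1* fell by 1.11 and 1.06 on the log2 scale, and in all 6 of 8 members fell. *BCAT4* and At2g31790, the members named by the annotation, were not called, at 397 and 419 then 273 and 171 for *BCAT4* (adjusted p = 0.058, limma). *IPMI1* and *CYP83A1* each lost their call without either mock array. In sulfate assimilation *APK2*, *AHL*, *SIR* and *APR1* fell by 0.90, 0.68, 0.59 and 0.48 on the log2 scale, among which *SIR*, sulfite reductase, was the brightest (1998 and 2179, then 1388 and 1388). *APS3*, an ATP sulfurylase gene, rose from 214 and 231 to 390 and 324, and its paralog *APS4* (571 and 602, then 581 and 585) was not called. Of the 4 annotation-named members 1 rose and 2 fell, but these 3 calls, and those of *APK2* and *APR1*, were each lost without at least 1 array (the first mock array for all but *SIR*).

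In flavonoid synthesis *CHI*, chalcone isomerase, read 123 and 115 and fell to 60.5 and 53.5. *MYBL2*, a repressor of anthocyanin genes, fell from 1715 and 1688 to 705 and 824, and *UGT78D1* fell by 0.50 on the log2 scale. *UGT78D2* and the dim *DFR* were not called. Light signalling genes were few. The blue light receptor gene *PHOT1* fell from 1231 and 1035 to 734 and 646 and the phytochrome gene *PHYE* by 0.61 on the log2 scale, and *PKS4* rose by 0.59. Of the clock-related genes measured *CDF1* fell by 0.60 on the log2 scale and *GI* was not called, at −0.10. *UGT78D1*, *PHOT1*, *PKS4* and *CDF1* lost their calls without the first mock array and *PHYE* without the second.

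In other groups few or no members were called. All 27 photosystem and light harvesting genes, all named by the annotation and 20 of them encoded in the chloroplast, were not called, with a median log2 change of −0.01, and among the brightest nuclear ones *PSAE-1* read 11059 and 11049 and then 10461 and 10523 and *PSBY* 10204 and 10389 and then 10476 and 10190. Of 10 tubulin and actin genes *TUB8* (1031 and 986, then 1605 and 1703) and *ACT11* (402 and 328, then 622 and 596) rose, and the 8 others, such as *TUA6* (3716 and 3478, then 3764 and 4000) and *TUB5*, were not called. The heat shock group gave *HSP70*, with a rise of 0.59, and *HSFB4*, with a fall of 0.67 on the log2 scale, against *HSP22.0* and *HSP70-2*, which were not called. *CYCD3;3*, a D-type cyclin gene, fell by 0.82 on the log2 scale, while *CYCB1;4* (−0.31) and *MCM7* (0.04) were not called, and *CYCP4;1*, outside the list and named after its value was seen, rose by 0.90. The aquaporin genes *PIP2;4* and *TIP2;3* were not called, at log2 changes of 0.34 and 0.46 (adjusted p = 0.187 and 0.181, limma). Without the second mock array *ACT11* and *HSP70* were not called.

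The 2 deepest falls of all belonged to genes outside these groups. At5g57785 read 794 and 712 on the mock arrays and 32.4 and 37.6 on the BR arrays, a 21.5-fold fall (log2 change −4.43 ± 0.10, SE, adjusted p = 4.94e-05, limma). At5g01740 read 1147 and 1357 and fell to 63.9 and 80.0, a 17.4-fold fall. At5g22580 fell from 502 and 434 to 98.3 and 77.7 and At1g32190 from 217 and 236 to 43.4 and 45.3. *P1R1* (At5g57780), the chromosomal neighbour of At5g57785, fell from 230 and 214 to 52.8 and 44.4, and At4g01870 fell from 646 and 667 to 185 and 172. The median probe set read 89.9 after mock. On both BR arrays At5g57785, At5g01740, At1g32190 and *P1R1* read below that, as did At5g22580 on the second. Among the largest rises, At3g55840, given as an Hs1pro-1 homolog in the study's tables, rose from 19.1 and 18.6 to 79.1 and 73.8, and At3g50560, given there as a steroid dehydrogenase, from 190 and 232 to 782 and 808. With 16 added, the rise of At3g55840 was 2.66-fold in place of 4.06-fold.

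Several called genes lie next to each other on a chromosome. Among 6286 pairs of neighbouring protein-coding genes (RefSeq order) with a named probe set each, 19 pairs both rose, 6 both fell and 5 moved in opposite directions. Many of these pairs are sister genes, such as *EXLA3* and *EXLA1* (1.52 and 1.97 on the log2 scale), *XTH18* and *XTH19* (2.14-fold and 3.77-fold) and *SAUR14*, *SAUR15* and *SAUR16* (0.79, 2.11 and 1.11), and values of near-identical sisters are uncertain where a probe set matches more than 1 of them. Others were not alike in name, such as *APK2* and *CYP79B2* (−0.90 and −0.70), *CHI* and the transporter gene *ABCG19* (−1.07 and −1.36) and *THE1* and *AHL*, which went opposite ways (0.82 and −0.68). *XTH24* fell by 0.74 on the log2 scale beside *XTH18*, which rose. The pairs named were chosen after their values were seen, and nearly all called genes had a name while many others did not. The called share among the genes of these pairs was not counted, so the pair counts stand without a base share and do not show clustering. For 3 called genes a further probe set of the same gene was named, and its change had the same sign each time, with both probe sets called for At1g21830 (0.67 and 0.57).

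At the edge of the calls were rises of about 1.4-fold. The 6 smallest changes called were *BZIP61* (609 and 612, then 837 and 840), At1g01540, At5g44060, At3g47570, *AtIPCS2* and *SETH3*, with log2 changes between 0.46 and 0.48. All 6 lost their calls whichever of the 4 arrays was left out. A further 897 probe sets had an adjusted p under 0.10 but B at or below 0 and were not called, among them *IAA19* (341 and 268, then 673 and 489) and *SAUR23* (186 and 140, then 430 and 285), named here after their values were seen as members with a large change and a wide spread.

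The response to BR was then set against that of *yucca* seedlings, with each response taken within its own genotype, because the arrays of the genotypes were scaled apart (median intensities of 44.7 to 46.4 in *yucca*). In *yucca*, 1.76% of probe sets were called higher and 1.66% lower after BR in the fit of all 8 arrays. Of the 342 probe sets that rose in WT, 327 had a change above 0 in *yucca* and 222 were called higher there. Of the 297 that fell, 291 had a change below 0 and 150 were called lower. None was called the opposite way. The share of all probe sets with a change above or below 0 in *yucca* was not counted, so the sign counts stand without a base share. Median log2 changes of these WT-called probe sets were 0.79 and −0.66 in *yucca*, beside 0.76 and −0.73 in WT, where they had been selected.

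A difference between the responses was called for 6 probe sets, 0.0264% of those tested. *XTH19* read 13.1 on both *yucca* mock arrays and 306 and 322 after BR, a log2 rise of 4.58 against 1.91 in WT (difference WT minus *yucca* −2.67 ± 0.15, SE, adjusted p = 0.000665, limma interaction). With 16 added to each intensity that difference was −1.71. The *yucca* mock values of *XTH19* were equal, so leaving out either of them left the difference at −2.67. At5g22580 fell less in *yucca*, from 821 and 816 to 482 and 450, with a difference of −1.60. *EXL4* fell further there, from 799 and 709 to 174 and 133, with a difference of 1.74. The remaining 3 probe sets, which have no gene named here, were not called in WT (log2 changes of −0.28, 0.42 and 0.46) and fell in *yucca* (−2.37, −1.51 and −1.98). The count depended on the fit. With the replicate number as a block 111 higher and 68 lower differences were called, and without the first *yucca* BR array 128 and 18. Without the first WT mock array none of the 6 was called, and without the second only that of *XTH19* was, although the differences themselves moved little. That of *XTH19* lay between −2.81 and −2.53 and that of *EXL4* between 1.55 and 1.94 over the fits that left out 1 array. For the other named genes a difference was not called, which does not show that the responses were alike. Those of *CPD* and *SAUR9*, for example, were 0.26 ± 0.16 and 0.08 ± 0.21 (SE), and that of *LAX3*, chosen after its value was seen, 1.02 ± 0.21, had an adjusted p of 0.235 (limma).

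**Figure D4:**
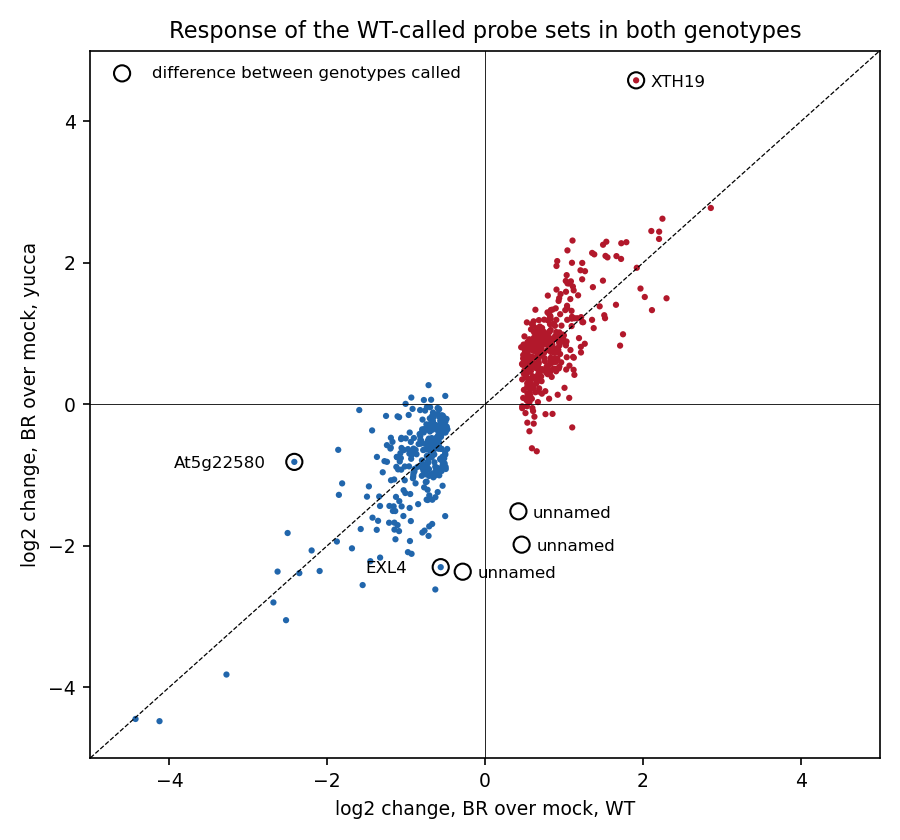
Log2 change after BR in *yucca* (vertical axis) against that in WT (horizontal axis) for the 639 probe sets called in WT (red higher, blue lower) and the 3 unnamed probe sets called only for the difference. Circles mark the 6 probe sets whose responses differed, and the dashed line marks equal responses.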

How the data were processed

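RNA of whole seedlings was measured on 8 Affymetrix ATH1 arrays, of which the 4 WT arrays (2 mock, 2 BR) entered the main comparison and all 8 the comparison of responses. The authors deposited rma intensity values (background correction, quantile normalization and 1 summary per probe set) on a linear scale. Probe sets with exactly equal deposited values on 2 arrays numbered 19 to 30 per pair of WT arrays, 61 to 86 per pair of *yucca* arrays and 0 between genotypes. Dim probe sets carry background, which compresses their changes.

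After removal of 64 control probe sets, limma 3.58.1 (R 4.3.3) was fitted to log2 intensities of the other 22746 (a mean per group, eBayes, assumed proportion 0.01). A call needed a Benjamini-Hochberg adjusted p under 0.10 and B above 0. Probe sets were named through the platform annotation (13484 with 1 gene) or, failing that, the study's tables (486), with symbols from RefSeq, while 503 stood for several genes and 8245 had no name and were tested unnamed. Of 447 named by both, 441 had the same locus. Columns of fold changes in the study's tables were not used. Members and gene lists were chosen with earlier results of these data known. Named genes were the 12 largest changes in each direction, up to 4 called per list and direction, up to 2 bright members not called, genes the study names, the 6 smallest calls and called differences. Genes of a list with no named probe set, and promoter sequences, were not analysed here. The fits were checked on simulated data. Alternatives were other arrays in the fit, a replicate block, thresholds, normalization, an added constant of 16, a filter and each array left out.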

Additional observations from a re-analysis of the deposited data

Results flagged for a closer look

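The log2 response to BR differed between WT and *yucca*, by the limma interaction with adjusted p under 0.10 and B above 0, for 6 probe sets, given as WT minus *yucca*. The difference was −2.67 for *XTH19*, −1.60 for At5g22580 and 1.74 for *EXL4*. It was 2.08, 2.45 and 1.94 for the 3 probe sets with no gene named here. The mock intensity of *XTH19* in *yucca* was 13.1 on both arrays and that in WT 148 and 122, on scales that were set apart.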

How the results depend on the processing

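Each group held 2 arrays. In WT, 342 probe sets rose and 297 fell. Without the B criterion these counts were 788 and 748, and with an assumed proportion of 0.05 in B they were 644 and 613. With each array left out in turn they ranged from 238 to 282 higher and from 193 to 268 lower, the lowest count of falls being that without the first mock array, and 401 to 470 of the 639 calls were among them. An adjusted p under 0.05, quantile normalization, 16 added, an intensity trend, a filter on the dimmer probe sets and a fit on all 8 arrays kept both counts within 1.5 times. The differences between WT and *yucca* were less stable. With 4 higher and 2 lower as reported, the higher count was 8 after quantile normalization, the lower was 1 with 16 added, and the counts were 9 and 5 after the filter and 31 and 16 with the trend. With each of the 8 arrays left out in turn they ranged from 0 to 128 higher and from 0 to 18 lower. Among named genes 63 of 164 lost a call in at least 1 fit that left out an array and 52 in at least 1 other setting, and the cause was not tested.

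Arrays of WT that share a replicate number share only that number in the labels. Their deviations from the group means correlated at 0.23 over probe sets. With the replicate number as a block, 293 probe sets rose and 266 fell in WT, and 111 higher and 68 lower differences between genotypes were called, the 6 reported ones among them.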

Other observations

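Of the 16 SAUR genes that rose in WT, 13 read higher on the first mock array than on the second and 13 read higher on the first BR array than on the second. The first array of the pair was the higher in 9 and 6 of the 12 arabinogalactan protein, extensin and LRX genes that rose, and in 3 and 2 of the 4 EXORDIUM genes that rose. Over all probe sets called higher these shares were 61.4% for mock and 54.4% for BR, and over all probe sets 49.8% and 45.2%.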
